A study of Mus musculus with 9 samples.

Results

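The Notch pathway genes described here are 10 of the 35675 genes in the tables: the receptors Notch1, Notch2 and Notch3, the ligands Dll1, Jag1 and Jag2, and Hes1, Hes6, Hey1 and Heyl of the Hes/Hey family. They were chosen by name as a list of pathway genes, with earlier results of these data known. All 10 passed the filter on low counts, as did 15714 genes in all. Heyl passed only through its MyoD F/R/C libraries, with at most 10 counts in MyoD and 12 in MEF libraries.

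The study asked how far mouse embryonic fibroblasts (MEFs) can be turned into muscle progenitor-like cells by the muscle transcription factor MyoD, with or without small molecules. Its 9 poly(A) RNA libraries form 3 groups of 3. MyoD F/R/C libraries came from MEFs given MyoD and a small-molecule mix abbreviated F/R/C, MyoD libraries from MEFs given MyoD alone, and MEF libraries from MEFs with neither. All 3 groups carried the Dmdmdx allele, a dystrophin mutation used as a mouse model of Duchenne muscular dystrophy, so there was no dystrophin wild-type group. The labels state neither what F, R and C stand for, nor how MyoD was delivered, the doses, the time of harvest or the embryos' age. Nor do they state that the 3 libraries in each group derive from different embryos or dishes. The p-values therefore set group differences against a spread between libraries that may be partly technical.

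Notch signalling passes between touching cells. A ligand of the Delta or Jagged family on one cell binds a Notch receptor on its neighbour, the receptor is cut by an ADAM protease and then by gamma-secretase, and the freed intracellular part joins Rbpj and a Mastermind protein to switch on genes, among them Hes and Hey genes, most of which encode transcriptional repressors. In mouse skeletal muscle the pathway is known for keeping satellite cells, the resident stem cells, undifferentiated, and for holding back MyoD-driven differentiation.

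Library totals ran between 21112071 and 24291056 estimated counts, so that 3 counts, the lowest level told from 0 here, corresponded to between 0.113 and 0.144 library-size-scaled counts (CPM). Myod1 stood at 269.1, 280.9 and 330.1 CPM in MyoD F/R/C libraries, 7.21, 9.03 and 18.9 CPM in MyoD libraries and 2.6, 0.403 and 6.0 CPM in MEF libraries. These counts do not tell the introduced from the endogenous gene. Summed levels of 8 skeletal muscle markers ranged over 29210–40790 CPM in MyoD F/R/C, 799.4–2564 CPM in MyoD and 3.46–496.8 CPM in MEF libraries, the highest MEF value being replicate 3. Summed levels of 8 fibroblast markers ranged over 3488–4961 CPM in MyoD F/R/C, 6107–16430 CPM in MyoD and 13160–48200 CPM in MEF libraries. Sums of 8 neural and glial markers were 24.6–46.7 CPM in MyoD F/R/C, 20.7–74.0 CPM in MyoD and 13.6–61.3 CPM in MEF libraries, and those of 6 macrophage markers 7.83–20.3, 9.40–31.0 and 6.36–21.7 CPM in MyoD F/R/C, MyoD and MEF libraries. The satellite cell marker Pax7 had 30.3, 17.1 and 8.36 CPM in MyoD F/R/C libraries and was at 0 counts in all but replicate 3 of both other groups, where it had 0.144 CPM (MyoD) and 0.692 CPM (MEF). The 7 satellite cell markers together nevertheless summed to 377.1–430.7 CPM in MyoD F/R/C libraries, 503.7–723.3 CPM in MyoD libraries and 645.3–1134 CPM in MEF libraries, because Vcam1 and Sdc4 made up most of the sum in the MyoD and MEF libraries.

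Of the 10 genes, 4 were higher and 1 was lower in MyoD F/R/C than in MEF libraries (edgeR quasi-likelihood test, Benjamini-Hochberg adjusted p under 0.05 over all genes), where 19.5% of all tested genes were higher and 18.1% lower. Dll1, Jag2, Hes6 and Heyl rose and Notch2 fell, while Notch1, Notch3, Jag1, Hes1 and Hey1 did not pass the test. In either direction 37.6% of all tested genes were called. The median log2 fold change was 1.37 over the 10 genes and -0.04 over all tested genes. Against MyoD libraries, Dll1, Jag2, Hes6 and Heyl were again higher and Notch2 again lower, where 33.9% of all tested genes were called (17.8% higher and 16.1% lower). The medians there were 1.02 over the 10 genes and -0.02 over all tested genes. Both comparisons use the same 3 MyoD F/R/C libraries and are therefore not independent. With 50% of a list of 10 called in each, the count of members called stands not far above the share of all genes called. Because the list was chosen with earlier results of these data known, neither the count nor the medians test the pathway.

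**Figure D1:**
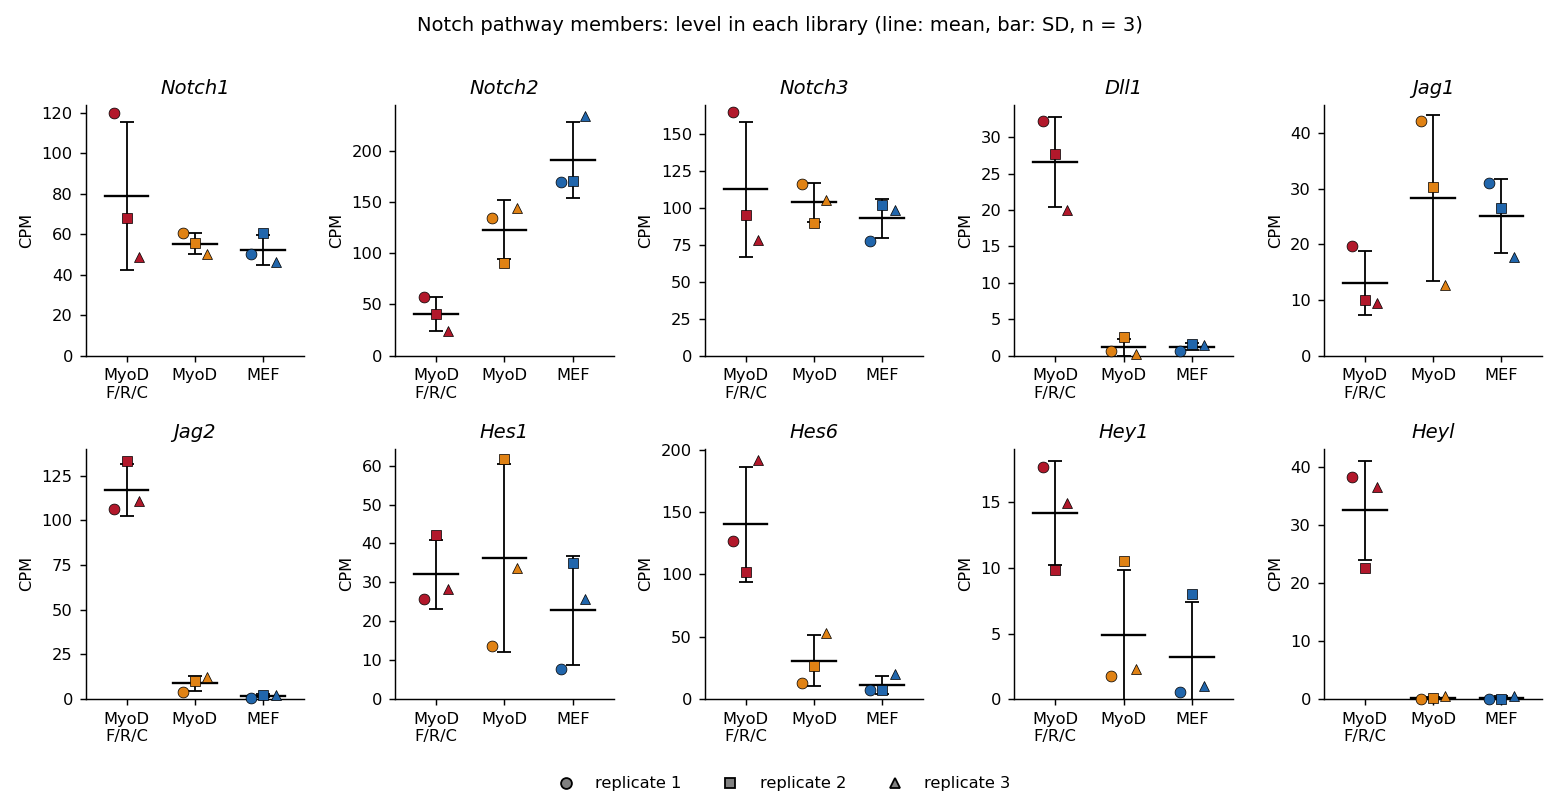
CPM of each gene (vertical axes, linear, each with its own scale) in every library of the MyoD F/R/C, MyoD and MEF groups; symbols give the replicate number, the horizontal line the mean and the bar the SD (n = 3, drawn no lower than 0). Dll1, Jag2, Hes6 and Heyl are higher and Notch2 is lower in each MyoD F/R/C library than in any other library, while Notch1, Notch3, Jag1 and Hes1 overlap between groups.

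**Figure D2:**
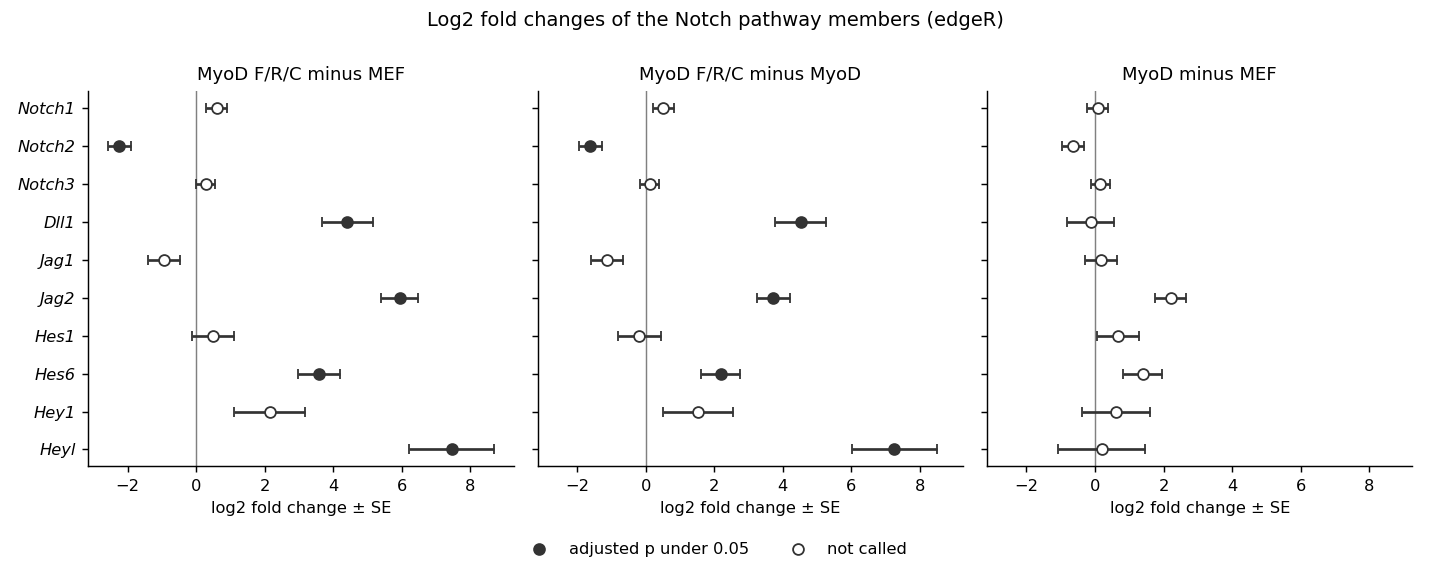
Log2 fold change with its SE (horizontal axes) of the 10 genes in MyoD F/R/C minus MEF, MyoD F/R/C minus MyoD and MyoD minus MEF libraries; filled points had an adjusted p under 0.05. The filled points are the same 5 genes in both left panels, and the panel for MyoD minus MEF has none.

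The sequence just before the transcription start is shown for 4 of the 5 genes that changed in MyoD F/R/C libraries (Dll1, Jag2, Hes6 and Notch2). None of them was called by edgeR between MyoD and MEF libraries. MyoD and other basic helix-loop-helix factors bind the E-box, CANNTG. Capitals mark each CANNTG, which reads the same way on both strands. The windows are the 250 bases before a RefSeq start on build GRCm38.p6, written 5′ to 3′ along the gene's own strand. RefSeq promoters were matched for 7 of the 10 genes, with 2 starts each for Dll1 and Hes6. Hes1, Hey1 and Heyl were not matched.
Hes6, chr1:91414039-91414288, minus strand: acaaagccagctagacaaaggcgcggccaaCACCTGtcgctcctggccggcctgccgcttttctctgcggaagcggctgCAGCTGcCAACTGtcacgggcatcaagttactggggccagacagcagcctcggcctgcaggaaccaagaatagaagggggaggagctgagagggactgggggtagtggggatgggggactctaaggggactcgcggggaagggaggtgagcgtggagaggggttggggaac
Hes6, further start, chr1:91413223-91413472, minus strand: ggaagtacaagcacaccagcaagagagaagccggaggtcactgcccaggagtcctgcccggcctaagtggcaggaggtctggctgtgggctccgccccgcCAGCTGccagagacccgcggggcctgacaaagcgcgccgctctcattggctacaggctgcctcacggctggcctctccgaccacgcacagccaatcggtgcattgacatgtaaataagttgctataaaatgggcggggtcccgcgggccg
Dll1, chr17:15376933-15377182, minus strand: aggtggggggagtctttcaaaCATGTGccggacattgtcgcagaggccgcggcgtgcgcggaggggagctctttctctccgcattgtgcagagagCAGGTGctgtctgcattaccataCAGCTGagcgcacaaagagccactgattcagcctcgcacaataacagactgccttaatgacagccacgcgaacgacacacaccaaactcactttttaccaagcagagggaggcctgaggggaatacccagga
Jag2, chr12:112929496-112929745, minus strand: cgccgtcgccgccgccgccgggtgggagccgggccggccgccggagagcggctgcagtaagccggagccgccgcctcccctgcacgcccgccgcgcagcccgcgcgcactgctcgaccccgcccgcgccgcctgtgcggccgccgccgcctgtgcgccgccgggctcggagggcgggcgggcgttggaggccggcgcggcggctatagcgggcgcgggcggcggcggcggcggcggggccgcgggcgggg
Notch2, chr3:98013288-98013537, plus strand: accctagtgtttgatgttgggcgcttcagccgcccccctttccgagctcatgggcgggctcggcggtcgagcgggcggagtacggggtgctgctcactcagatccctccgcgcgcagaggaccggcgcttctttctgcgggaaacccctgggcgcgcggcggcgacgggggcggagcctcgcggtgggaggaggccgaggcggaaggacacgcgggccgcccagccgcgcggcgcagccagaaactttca

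The upstream Hes6 window held 3 E-boxes, at 220, 171 and 164 bases before the start, of which 1 read CAGCTG and 1 CACCTG. The other Hes6 window held 1, a CAGCTG at 150 bases. The Dll1 window above also held 3, at 229, 155 and 132 bases, among them 1 CAGCTG and 1 CAGGTG, which is CACCTG on the opposite strand. The other Dll1 start, not shown, had 1 E-box, and Jag1 had 1 CAGCTG at 82 bases. Jag2, Notch1, Notch2 and Notch3 had none, and the Jag2 window was 87.2% G or C. Such matches are common: 66.2% of 32536 promoter windows of this length held a CANNTG, 13.1% a CAGCTG and 17.3% a CACCTG, counting both strands. The E-boxes with named middle letters are also counted among the general ones. TGGGAA, the core letters of the Rbpj motif, was in 21.6% of all windows and in none of these 9, counting both strands. These are matches of letters and were not tested for binding.

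Among the receptors, Notch2 fell and neither of the others passed the test. Notch2 (ENSMUSG00000027878, GRCm38 chromosome 3, 98013527 to 98150361, plus strand) had 56.9, 40.4 and 23.6 CPM in MyoD F/R/C libraries, 134.6, 90.7 and 144.2 CPM in MyoD libraries and 169.5, 170.6 and 234.2 CPM in MEF libraries. No 2 groups overlapped, and the highest MyoD F/R/C library stood 2.98-fold below the lowest MEF library and 1.59-fold below the lowest MyoD library. The log2 fold change was -2.25 ± 0.34 (SE) against MEF libraries (adjusted p = 0.00173), 4.75-fold lower, and -1.61 ± 0.33 against MyoD libraries (adjusted p = 0.00782), 3.05-fold lower. Each call held when any 1 library was left out, with values between -2.58 and -1.98 against MEF and between -1.94 and -1.34 against MyoD. The summed fibroblast markers were also lowest in MyoD F/R/C libraries, but most of that sum was Col1a1 and Col1a2. Pdgfra averaged 275.2, 349.7 and 525.3 CPM in MyoD F/R/C, MyoD and MEF libraries, Postn 154.5, 257.2 and 936 CPM and Lum 201.8, 343.7 and 684 CPM. These means fell in the same order as the sum. The means of Thy1, Twist2 and Dcn did not. Twist2 averaged 34.3, 28.3 and 19.6 CPM in MyoD F/R/C, MyoD and MEF libraries, Dcn 241.3, 53.1 and 217.9 CPM and Thy1 540.3, 424.4 and 583.4 CPM. The part of fibroblast transcripts in the Notch2 result was not tested. In bulk RNA, fewer cells that carry a transcript and less of it per cell cannot be told apart.

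Notch1 (ENSMUSG00000026923, chromosome 2, 26457903 to 26516663, minus strand), the receptor also known from T-cell development, had 119.8, 68.2 and 48.9 CPM in MyoD F/R/C libraries, 60.4, 55.5 and 50.1 CPM in MyoD libraries and 50.3, 60.6 and 46.3 CPM in MEF libraries. Replicate 1 of MyoD F/R/C was the highest of the 9 libraries and replicate 3 lay among the MEF values. On the log2 scale the difference was 0.59 ± 0.30 against MEF (adjusted p = 0.154) and 0.51 ± 0.30 against MyoD (adjusted p = 0.219). The value against MEF rested on single libraries: it was 0.16 (adjusted p = 0.602) without MyoD F/R/C replicate 1 and 0.84 (adjusted p = 0.0433) without MyoD F/R/C replicate 3.

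Notch3 (ENSMUSG00000038146, chromosome 17, 32120820 to 32166852, minus strand), best known from vascular smooth muscle and pericytes and also present in satellite cells, had 164.6, 94.9 and 78.1 CPM in MyoD F/R/C libraries, 116.5, 90.03 and 105.1 CPM in MyoD libraries and 77.8, 102.1 and 98.8 CPM in MEF libraries. The groups overlapped. Log2 fold changes were 0.28 ± 0.28 against MEF (adjusted p = 0.465) and 0.12 ± 0.28 against MyoD (adjusted p = 0.776). The 7 pericyte and smooth muscle markers other than Des, which skeletal muscle also makes, summed to 339.9–364.7 CPM in MyoD F/R/C, 578.3–869.5 CPM in MyoD and 509–933.9 CPM in MEF libraries. Rgs5, Cspg4 and Pdgfrb made up most of these sums. Abcc9 and Kcnj8 went the other way. Abcc9 averaged 64.3 CPM in MyoD F/R/C, 7.8 CPM in MyoD and 1.64 CPM in MEF libraries. Kcnj8 averaged 8.06, 4.17 and 2.192 CPM in MyoD F/R/C, MyoD and MEF libraries. Myh11 also averaged highest in MyoD F/R/C (22.4 CPM, against 7.11 in MyoD and 8.56 in MEF), but its groups overlapped. Cnn1 averaged lowest there, at 9.79 CPM against 18.9 in MyoD and 33.4 in MEF libraries.

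Of the ligands, Dll1 and Jag2 rose together and Jag1 did not. Dll1 (ENSMUSG00000014773, chromosome 17, 15367354 to 15376872, minus strand), a Delta ligand whose loss in mouse embryos lets muscle progenitors differentiate too early, had 766, 606 and 416 counts in MyoD F/R/C libraries, 14, 66 and 6 in MyoD libraries and 15, 39 and 32 in MEF libraries. In CPM these were 32.2, 27.6 and 20.0 in MyoD F/R/C, 0.627, 2.49 and 0.289 in MyoD, and 0.698, 1.57 and 1.48 in MEF libraries. The lowest MyoD F/R/C library stood 8.01-fold above the highest MyoD library and 12.7-fold above the highest MEF library.

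For Dll1 the log2 fold change was 4.404 ± 0.74 against MEF (adjusted p = 0.00271), 21.2-fold, and 4.52 ± 0.75 against MyoD (adjusted p = 0.0033), 23-fold. The call held without any 1 library. Without MyoD replicate 2, the MyoD library with most Dll1 counts, the value against MyoD was 5.81. MyoD and MEF libraries overlapped (MyoD minus MEF, -0.12 ± 0.68).

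Jag2 (ENSMUSG00000002799, chromosome 12, 112907819 to 112929776, minus strand), a Jagged ligand known for its role in limb, palate and hair-cell development, had 106.5, 133.4 and 111 CPM in MyoD F/R/C libraries, 4.21, 10.1 and 12.2 CPM in MyoD libraries and 0.884, 2.38 and 2.45 CPM in MEF libraries. The 3 groups stood in steps with no overlap. Jag2 had a log2 fold change of 5.94 ± 0.53 against MEF (adjusted p = 0.000299), 61.2-fold, and 3.73 ± 0.48 against MyoD (adjusted p = 0.00131), 13.3-fold. Leaving out 1 library gave 5.54 to 6.10 against MEF and 3.39 to 4.03 against MyoD, all called. In MyoD F/R/C libraries between 38.8% and 67.1% of the gene's length-scaled level (TPM, which corrects counts for transcript length and depth) was assigned to the protein-coding transcript Jag2-201, and the rest to its other annotated transcripts.

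Jag1 (ENSMUSG00000027276, chromosome 2, 137081456 to 137116644, minus strand), a Jagged ligand known from vessel walls, had 19.7, 9.98 and 9.41 CPM in MyoD F/R/C libraries, 42.2, 30.3 and 12.7 CPM in MyoD libraries and 31.0, 26.5 and 17.8 CPM in MEF libraries. Each MyoD F/R/C library was below the MEF library of the same number, but the groups overlapped, and replicate 3 was the lowest of each group. The log2 fold change was -0.95 ± 0.47 against MEF (adjusted p = 0.139). With the replicate number as a block it was -0.99 ± 0.26 with adjusted p = 0.0204, which passes, as it did without the third library of both MEF and MyoD (-1.09, adjusted p = 0.0445). Against MyoD it was -1.12 ± 0.47 (adjusted p = 0.0932), -0.73 without MyoD replicate 1 (adjusted p = 0.289) and -1.48 without MyoD replicate 3 (adjusted p = 0.0219).

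Among the Hes and Hey genes, Heyl and Hes6 rose, whereas Hes1, a direct Notch target in many tissues, did not pass the test in either comparison. Heyl (ENSMUSG00000032744, chromosome 4, 123233556 to 123249875, plus strand), which with Hey1 is needed to keep mouse satellite cells undifferentiated, had 913, 497 and 763 counts in MyoD F/R/C libraries, 1, 3 and 10 counts in MyoD libraries and 0, 0 and 12 counts in MEF libraries. In CPM the MyoD F/R/C libraries stood at 38.3, 22.7 and 36.6. The lowest of them stood 47.1-fold above the highest MyoD library and 40.9-fold above the highest MEF library.

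The log2 fold change of Heyl was 7.45 ± 1.25 against MEF (adjusted p = 0.00261) and 7.26 ± 1.23 against MyoD (adjusted p = 0.00359). The size rests on few counts in the MEF and MyoD libraries. Without MEF replicate 3, which held all 12 MEF counts and also the muscle transcripts noted above, the fitted value was 12.49, against libraries all at 0, and is no measure of size. Without MyoD replicate 3 the value against MyoD was 8.54. The calls themselves held without any 1 library.

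Hes6 (ENSMUSG00000067071, chromosome 1, 91411483 to 91414038, minus strand) encodes an unusual family member that counteracts Hes1 and, in mouse and frog, favours neuronal and muscle differentiation. It had 127.1, 101.7 and 191.6 CPM in MyoD F/R/C libraries, 12.9, 26.2 and 53.3 CPM in MyoD libraries and 7.58, 7.45 and 19.9 CPM in MEF libraries. Every MyoD F/R/C library was above all others, and within both other groups replicate 3 was the highest. For Hes6 the log2 fold change was 3.59 ± 0.61 against MEF (adjusted p = 0.00286), 12-fold, and 2.188 ± 0.58 against MyoD (adjusted p = 0.0199), 4.56-fold. The call against MyoD ended without MyoD replicate 2 (adjusted p = 0.0762) and without MyoD F/R/C replicate 3 (adjusted p = 0.0679). Replicate 3 was also the library with the highest summed skeletal muscle markers in each of the 3 groups, at 40790 CPM in MyoD F/R/C, 2564 CPM in MyoD and 496.8 CPM in MEF. Those markers, like Dll1, Jag2, Hes6 and Heyl, were highest in MyoD F/R/C libraries. The marker sums, Jag2 and Hes6 also averaged higher in MyoD than in MEF libraries. Dll1 averaged 1.14 CPM in MyoD and 1.25 CPM in MEF libraries. Heyl averaged slightly higher in MyoD (0.213 CPM) than in MEF libraries (0.1845 CPM), on few counts. Replicate 3 had the highest Heyl in MyoD (0.481 CPM) and MEF (0.554 CPM). In MyoD F/R/C it had 36.6 CPM, below the 38.3 CPM of replicate 1. In MyoD F/R/C and in MyoD, replicate 3 had the lowest Dll1 of its group, at 20.0 and 0.289 CPM. The part of the muscle markers in these results was not tested.

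Hes1 (ENSMUSG00000022528, chromosome 16, 30064384 to 30067796, plus strand) had 25.9, 42.2 and 28.2 CPM in MyoD F/R/C libraries, 13.6, 61.7 and 33.7 CPM in MyoD libraries and 7.63, 35.0 and 25.7 CPM in MEF libraries. Replicate 2 was highest and replicate 1 lowest in each group, and the groups overlapped. Hes1 had a log2 fold change of 0.49 ± 0.62 against MEF (adjusted p = 0.561) and -0.18 ± 0.62 against MyoD (adjusted p = 0.847).

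Hey1 (ENSMUSG00000040289, chromosome 3, 8663359 to 8667256, minus strand) had 17.7, 9.85 and 14.98 CPM in MyoD F/R/C libraries, 1.79, 10.6 and 2.26 CPM in MyoD libraries and 0.512, 8.01 and 1.02 CPM in MEF libraries. Replicate 2 of both other groups stood far above its group, and in MyoD it exceeded the lowest MyoD F/R/C library. Its log2 fold change was 2.15 ± 1.04 against MEF (adjusted p = 0.133) and 1.53 ± 1.01 against MyoD (adjusted p = 0.269). Against MEF it passed with the replicate number as a block (3.25 ± 0.89, adjusted p = 0.023), with DESeq2 (2.20, adjusted p = 0.047) and without MEF replicate 2 (4.15, adjusted p = 0.0165).

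For MyoD alone, edgeR called none of the 10 genes at the threshold, either in the unpaired main fit or with the replicate number as a block. Between MyoD and MEF libraries 0 of 10 were called, where 0% of all tested genes were called by edgeR. That 0% changed with the libraries and with the fit. Without MEF replicate 3, the MEF library with muscle transcripts, edgeR called 158 genes higher and 3 lower (0.989% of those tested). Without the third library of both groups it called 198 higher and 1 lower. With all libraries it called 13 genes, all higher, with the replicate number as a block, and 10 higher and 1 lower with no filter beyond 1 count. None of the 10 members was called in any of these edgeR fits. With the block, Jag2 had a log2 fold change of 2.20 ± 0.32 (edgeR adjusted p = 0.081). Hes6 had 1.37 ± 0.30 (edgeR adjusted p = 0.195) and Hes1 0.66 ± 0.34. These SEs were smaller than in the main fit, but that of Notch2 was not (-0.66 ± 0.33). The main fit thus left out a pairing that narrowed some of these values. At an unadjusted p under 0.05 in the main fit there were 2 of the 10, Jag2 and Hes6, and 732 genes in all (4.66% of those tested). DESeq2 called 1 of the 10, Jag2, and 160 genes higher and 11 lower in all (1.1% of those it tested). Jag2 had a log2 fold change of 2.21 ± 0.46 (edgeR adjusted p = 0.253), and DESeq2 gave it 2.23 with adjusted p = 0.00144. All 3 MyoD libraries were above all 3 MEF libraries, the lowest by 1.72-fold. For Notch2 all 3 MyoD libraries were below all 3 MEF libraries, with a log2 fold change of -0.64 ± 0.33 (adjusted p = 1). Groups without overlap were thus seen for 2 of 10 genes, and for 7.52% of all tested genes. Hes6 had 1.40 ± 0.57 (adjusted p = 0.991), with overlapping groups. Jag2, Hes6, Hes1 and Hey1 were each higher in 3 of 3 same-numbered pairs. In the main fit the 7 genes other than Jag2, Notch2 and Hes6 had values between -0.12 and 0.67, each with adjusted p = 1. Of these, Heyl passed the low-count filter only through its MyoD F/R/C libraries, having at most 10 counts in MyoD and 12 in MEF libraries. The comparison of MyoD with MEF shares its MEF libraries with that of MyoD F/R/C against MEF. In the latter the groups of 6 of the 10 genes did not overlap, and those of 53.2% of all tested genes. Against MyoD it was 5 of the 10, and 49.8% of all tested genes.

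Levels can be compared between genes only per transcript length, for which the deposited TPM were summed per gene. In MyoD F/R/C libraries Hes6 led with 165.7 ± 31.3 TPM (SD, n = 3), above Jag2 with 67.4 ± 23.2 TPM without overlap. Hes1 followed with 49.4 ± 17.1 TPM, Notch3 with 23.6 ± 10 TPM, Dll1 with 18.6 ± 7.40 TPM and Notch1 with 16.4 ± 9.01 TPM. Heyl (10.6 ± 3.55 TPM), Hey1 (8.98 ± 3.74 TPM), Notch2 (5.82 ± 3.03 TPM) and Jag1 (3.63 ± 2.07 TPM) came last. Below Hes6 each neighbour in this order overlapped the next.

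In MyoD libraries Hes1 was highest on average with 87.0 ± 65.1 TPM, overlapping Hes6 with 46.7 ± 28.4 TPM. Notch3 (26.8 ± 2.32 TPM), Notch2 (22.0 ± 3.89 TPM) and Notch1 (15.02 ± 2.09 TPM) followed, each above the next without overlap. Jag1, Jag2 and Hey1 lay between 5.86 and 10.04 TPM on average and overlapped, Dll1 was at 1.75 ± 1.64 TPM, and Heyl was last at 0.0846 TPM. Among MEF libraries the order of means was Hes1 (56.6 ± 42.8 TPM), Notch2 (33.9 ± 5.995 TPM), Notch3 (22.9 ± 3.34 TPM), Hes6 (17.8 ± 10.8 TPM) and Notch1 (15.2 ± 3.37 TPM). Notch2 did not overlap Notch3 there, but overlapped Hes1, whose lowest library had 14.4 TPM. The protein-coding transcript Hes1-201 averaged 27.1 TPM in MEF libraries and Notch2-201 33.9 TPM, so Hes1 stood first only with its other transcripts counted. Jag1 had 9.04 ± 2.66 TPM, below Notch1 without overlap, and Hey1, Jag2, Dll1 and Heyl averaged between 0.0742 and 3.29 TPM.

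Within each family the leading gene differed between MyoD F/R/C and MEF libraries. In MyoD libraries Notch3 led the receptors, as in MyoD F/R/C, while Jag1 and Hes1 led their families on average, as in MEF. Jag2 made up 72.9%, 77.3% and 76.1% of the summed TPM of the 3 ligands in MyoD F/R/C libraries, 22.2%, 42.7% and 71.1% in MyoD libraries and 12.1%, 18.5% and 12.5% in MEF libraries. Jag1 made up 5.21%, 2.72% and 4.04% in MyoD F/R/C, 70.8%, 44.2% and 26.8% in MyoD, and 82.7%, 70.4% and 69.9% in MEF libraries. The MyoD libraries differed widely among themselves in both shares. Replicate 3 was near the MyoD F/R/C libraries in its Jag2 share but not in its Jag1 share, nor in its Dll1 share of 2.05%, against 19.8% to 21.9% in MyoD F/R/C libraries. The ligand sum was 115.2, 100.1 and 53.7 TPM in MyoD F/R/C libraries, 20.1, 26.9 and 14.9 TPM in MyoD libraries and 14.0, 13.1 and 8.98 TPM in MEF libraries. TPM were not TMM-scaled, so such sums compare less well between libraries than CPM. Jag2 had 83.9, 77.4 and 40.9 TPM in MyoD F/R/C libraries, but 106.5, 133.4 and 111 CPM.

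Notch2 made up 12.9%, 13.6% and 10.7% of the TPM of the 3 receptors in MyoD F/R/C libraries, 34.5%, 30% and 38.8% in MyoD libraries and 48.6%, 41.0% and 51.7% in MEF libraries. Notch3 held 51.4%, 45.1% and 63.3% in MyoD F/R/C, 41.2%, 44.8% and 40.0% in MyoD, and 31.5%, 34.1% and 29.8% in MEF libraries. The receptor sum was 45.8 ± 21.4 TPM in MyoD F/R/C, 63.8 ± 6.53 TPM in MyoD and 72.0 ± 9.43 TPM in MEF libraries (SD, n = 3 each). Hes6 held 70.2%, 61.6% and 78.9% of the Hes and Hey sum in MyoD F/R/C, 37.4%, 20.3% and 50.8% in MyoD, and 43.3%, 9.80% and 34.8% in MEF libraries. Heyl held 3.595% to 5.96% of that sum in MyoD F/R/C, at most 0.123% in MyoD and at most 0.256% in MEF libraries. The shares are descriptions; 3 libraries against 3 allow no two-sided exact permutation p below 0.1.

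**Figure D3:**
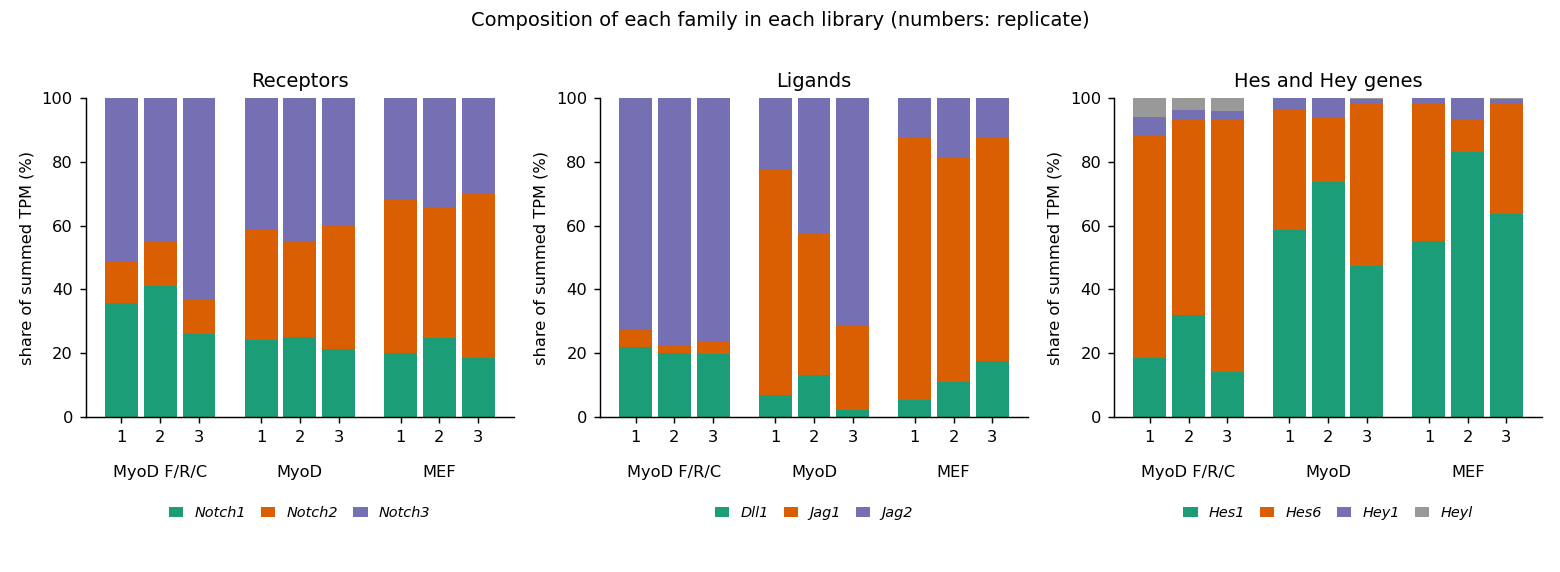
Share (%) of the summed TPM of the receptors, the ligands and the Hes and Hey genes held by each gene (vertical axes), 1 bar for each library, ordered as MyoD F/R/C, MyoD and MEF with the replicate number under each bar. Jag2 holds 72.9% to 77.3% of the ligand sum in MyoD F/R/C libraries and 12.1% to 18.5% in MEF libraries, where Jag1 holds 69.9% to 82.7%.

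Of 53 other pathway genes, listed by role, 46 passed the low-count filter. Against MEF libraries 10 were higher and 11 lower in MyoD F/R/C libraries, a share of 45.7% beside 37.6% of all genes, with a median log2 fold change of -0.17. Against MyoD libraries 10 were higher and 9 lower. That share of the tested list was 41.3%, beside 33.9% of all genes, with a median of -0.10. With total counts as the only scaling these last counts became 7 and 12, a setting that moved the median of all genes to -0.21. Between MyoD and MEF libraries edgeR called 0 of the 46, and 1 had an unadjusted p under 0.05.

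Among other ligands and receptors, 3 of the 4 tested rose and 1 fell against MEF. Dlk1, a non-canonical Delta-like protein that lacks the receptor-binding DSL domain, averaged 1833 CPM in MyoD F/R/C libraries, 88.8 CPM in MyoD libraries and 118.4 CPM in MEF libraries, with log2 fold changes of 4.37 ± 0.87 against MyoD (adjusted p = 0.00673) and 3.95 ± 0.85 against MEF (adjusted p = 0.00757). Dll4, a Delta ligand of blood vessels, had 15, 22 and 18 counts in MyoD F/R/C libraries against 3, 6 and 3 in MEF libraries (2.22 ± 0.56, adjusted p = 0.0142). That call ended without MEF replicate 1 or 3 or MyoD F/R/C replicate 2, with adjusted p up to 0.0578. The 8 endothelial markers summed to 1.49–6.02 CPM in MyoD F/R/C and 11.6–55.8 CPM in MEF libraries, with Sox17 at 0 in all 9. Most of the MEF sum was Erg (53.0, 27.0 and 9.73 CPM). Tek was also lower in MyoD F/R/C libraries, with 2, 0 and 2 counts against 47, 45 and 24 in MEF libraries. Cdh5 averaged 0.729 CPM in MyoD F/R/C and 0.0154 CPM in MEF libraries, Pecam1 0.500 and 0.131 CPM and Kdr 0.653 and 0.347 CPM, the same direction as Dll4. Cdh5 and Pecam1 did not pass the low-count filter, and Tie1 and Emcn had at most 2 counts in these libraries. The part of endothelial transcripts in the Dll4 result was not tested. Dner, a membrane protein of neurons, rose against MEF (3.22 ± 0.84, adjusted p = 0.0167) but not without MyoD F/R/C replicate 1 (adjusted p = 0.0579). Dlk2 fell by 1.63 on the log2 scale (SE 0.54, adjusted p = 0.0407), a call that ended without MEF replicate 3 or without any 1 MyoD F/R/C library.

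Rbpj, the DNA-binding partner of the freed receptor fragment, did not pass the test in either comparison, at 178.1, 203.4 and 117.9 CPM in MyoD F/R/C, 139.8, 173.7 and 177.3 CPM in MyoD and 101.1, 169.4 and 171.9 CPM in MEF libraries. Around it 3 of 14 nuclear factors rose and 5 fell against MEF. The Groucho-family co-repressors, which Hes and Hey proteins recruit, moved in opposite directions. Tle1 averaged 13.6 ± 3.19 CPM in MyoD F/R/C, 151.5 ± 60.8 CPM in MyoD and 142.9 ± 74.96 CPM in MEF libraries (SD, n = 3 each), with log2 fold changes of -3.48 ± 0.49 against MyoD (adjusted p = 0.0018) and -3.39 ± 0.49 against MEF (adjusted p = 0.00141). Tle3 averaged 193.2 ± 11.8 CPM in MyoD F/R/C, 61.2 ± 21.9 CPM in MyoD and 55.8 ± 28.2 CPM in MEF libraries, with 1.66 ± 0.37 against MyoD (adjusted p = 0.01) and 1.79 ± 0.37 against MEF (adjusted p = 0.00612). Maml2, a Mastermind co-activator, fell in both comparisons (-2.58 ± 0.37 against MEF, adjusted p = 0.00136), as did the histone deacetylase Hdac1 (-1.03 ± 0.20, adjusted p = 0.00463). Tle4 rose against MEF (2.09 ± 0.59, adjusted p = 0.0232), a call that ended without MyoD F/R/C replicate 2 or 3, and its call against MyoD ended without any 1 of the 6 libraries compared. Maml3 rose against MEF (1.75 ± 0.57, adjusted p = 0.0384), and this call ended without MEF replicate 2 or without any 1 MyoD F/R/C library.

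In the gamma-secretase complex, Ncstn and Aph1b fell in both comparisons and Aph1a fell against MEF, while Psen2, which encodes a catalytic subunit, did not pass the test. Ncstn averaged 137.5 CPM in MyoD F/R/C, 244.1 CPM in MyoD and 245.8 CPM in MEF libraries (-0.84 ± 0.17 against MEF, adjusted p = 0.00563). Aph1b had -1.05 ± 0.25 (adjusted p = 0.0116) and Aph1a -0.58 ± 0.16 (adjusted p = 0.0181) against MEF. The Aph1a call ended without MyoD F/R/C replicate 1 or 2. The Aph1b call against MyoD ended without MyoD replicate 1 or 3, or MyoD F/R/C replicate 1 or 3. Adam10, the receptor-cutting protease, rose against MyoD (0.76 ± 0.22, adjusted p = 0.0282) and had 0.52 ± 0.22 against MEF (adjusted p = 0.091). Its call ended without MyoD replicate 1 or 2, or MyoD F/R/C replicate 1 or 2.

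Enzymes that add sugars to the receptors moved apart. Mfng, the Manic fringe glycosyltransferase, had 100, 174 and 205 counts in MyoD F/R/C libraries, 5, 0 and 3 in MyoD libraries and 4, 2 and 1 in MEF libraries, with fitted log2 fold changes of 5.88 ± 0.90 (adjusted p = 0.00251) against MyoD and 6.07 ± 0.91 (adjusted p = 0.0017) against MEF. Poglut1, which adds O-glucose, fell to 25.9 ± 2.31 CPM in MyoD F/R/C libraries, against 77.5 ± 13.9 CPM in MyoD and 83.3 ± 6.18 CPM in MEF libraries, with log2 fold changes of -1.58 ± 0.18 (adjusted p = 0.000845) and -1.69 ± 0.18 (adjusted p = 0.00047). Pofut1, which adds O-fucose, had -1.07 ± 0.18 against MEF (adjusted p = 0.00249). Thus 1 of 5 rose and 2 fell, and Lfng and Rfng did not pass the test.

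Among 12 genes of ligand and receptor endocytosis and turnover, 3 rose and none fell against MEF by edgeR. Neurl1a, a ubiquitin ligase of the Neuralized family, had 231.1, 259.1 and 304.8 CPM in MyoD F/R/C, 12.6, 20.1 and 35.6 CPM in MyoD and 1.12, 5.03 and 13.3 CPM in MEF libraries. The groups did not overlap in the comparisons of MyoD F/R/C with either, with 3.54 ± 0.76 against MyoD (adjusted p = 0.00912) and 5.35 ± 0.83 against MEF (adjusted p = 0.00195). Fbxw7, part of the ubiquitin ligase that marks the freed Notch fragment for breakdown, averaged 70.2 ± 8.43 CPM in MyoD F/R/C, 23.7 ± 2.604 CPM in MyoD and 19.2 ± 1.66 CPM in MEF libraries, with 1.57 ± 0.17 (adjusted p = 0.000768) and 1.87 ± 0.17 (adjusted p = 0.000322). Dtx4, a Deltex ligase, rose against MEF (1.81 ± 0.59, adjusted p = 0.0401) and MyoD (2.40 ± 0.61, adjusted p = 0.0166). The call against MEF ended without MEF replicate 2 or 3 or any 1 MyoD F/R/C library, and the call against MyoD without MyoD replicate 2 or MyoD F/R/C replicate 1.

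The remaining Hes family genes and feedback targets were scarce. Hes2, Hes3, Hes5 and Helt had at most 2 counts in any of the 9 libraries, under the floor of 3. Hes7 reached at most 5 counts, and Hey2 and the feedback inhibitor Nrarp were tested but not called (0.98 ± 0.78, adjusted p = 0.354, and 0.77 ± 0.81, adjusted p = 0.487, against MEF). Notch4 and Dll3, with at most 28 and 8 counts, did not pass the low-count filter.

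**Figure D4:**
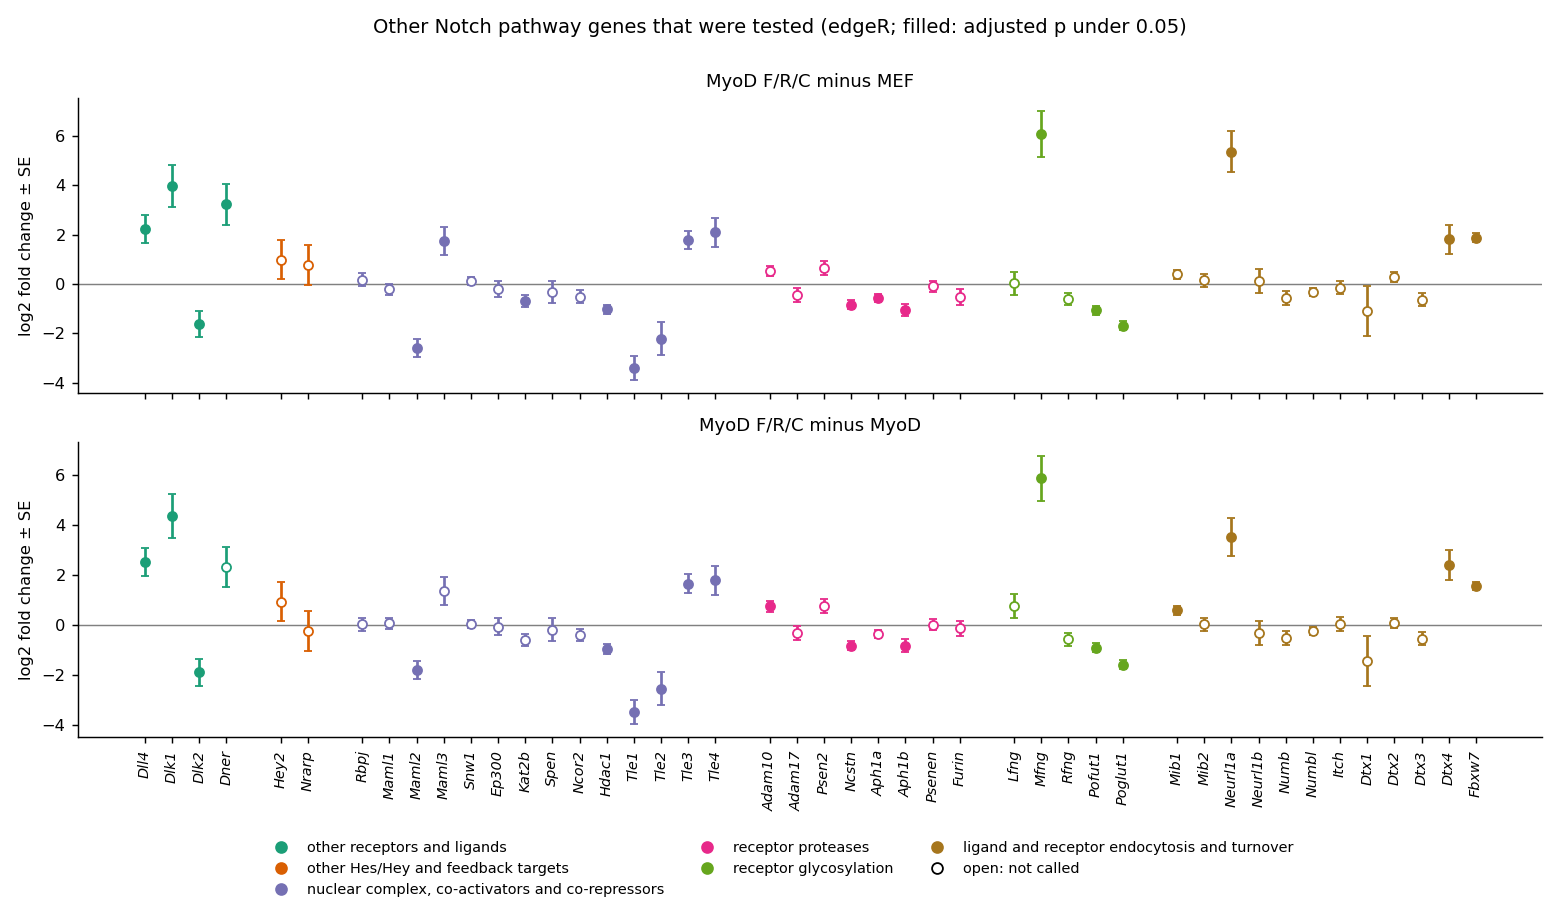
Log2 fold change with its SE (vertical axes) of other pathway genes that were tested, by role, in MyoD F/R/C minus MEF (top) and MyoD F/R/C minus MyoD libraries (bottom); filled points had an adjusted p under 0.05. Mfng stands highest and Tle1 lowest in both panels.

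Among genes averaging 3 or more on the log2 CPM scale, those whose log2 CPM followed a called member most closely over the 9 libraries were found by Pearson's r. For Heyl they were Col26a1 (r = 0.998), Fgfr4 (0.996) and Acsl6 (0.995), and for Jag2 Coq8a (0.992) was among them. For Hes6 Cystm1 (0.991) and Rassf3 (0.988) were among them, and for Dll1 they were Tmem131l (0.987), Dnajc27 (0.980) and Igf2 (0.974). For Notch2, which fell, they were Usp6nl (0.989), L3mbtl3 (0.988) and Ccser2 (0.986). The 9 libraries split into MyoD F/R/C and the rest for all of these genes, so r mainly records that split.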

How the data were processed

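Poly(A) RNA of 9 libraries was sequenced with a stranded kit, per the labels. The submitters' processing notes name bcl2fastq 2.19, Trimmomatic 0.36, kallisto 0.44, edgeR 3.28 and GRCm38.p6. The authors deposited estimated counts and TPM per transcript and library, per the file headers. Here both were summed per gene through GENCODE M21 (121104 of 121843 transcripts joined, the rest holding 0.1996% to 0.4941% of counts). Summed counts were rounded, filtered (filterByExpr, minimum count 10), scaled by TMM and fitted in a single edgeR 4.0.16 quasi-likelihood model of 3 groups (R 4.3.3), with Benjamini-Hochberg adjustment over 15714 genes. The SE was obtained from each log2 fold change and its F statistic. The groups shared an estimate of the spread for each gene, so SEs for MyoD minus MEF also carry the spread of MyoD F/R/C libraries. With only MyoD and MEF libraries fitted, that SE was 0.158 for Notch1 (0.301 in the main fit) and 0.582 for Jag2 (0.462 in the main fit). CPM use TMM-scaled totals. kallisto divides reads shared between similar transcripts by estimation, so per-transcript values are less certain than sums, and the TPM sums include non-coding transcripts. Depth was at least 21112071 counts a library, and floors cover counting error only.

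The members and gene lists were chosen with earlier results of these data known. The other pathway genes named are, per list, comparison and direction, the 3 called with the smallest adjusted p, and those at or under 3 counts in all libraries. A few genes that these rules or the likeness rule would name are not reported here, in text or figures, but remain in the counts. Replicate numbers come from the sample titles. Deviations of same-numbered libraries correlated at 0.655, 0.632 and 0.729 between MyoD and MEF and at 0.142, 0.151 and 0.101 between MyoD F/R/C and MEF. The numbers were taken to pair MyoD with MEF libraries, while pairing with MyoD F/R/C libraries is unclear. The main fit did not use this pairing, and the replicate block was run as an alternative. Values for MyoD minus MEF are therefore unpaired unless the block is named. The procedure was tested on simulated counts. The alternatives were DESeq2 1.42.0, other scalings, filters and fits, counts from TPM, a replicate block, and leaving libraries out.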

Additional observations from a re-analysis of the deposited data

How the results depend on the processing

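The calls of Notch2, Dll1, Jag2 and Heyl in both MyoD F/R/C comparisons, and of Hes6 against MEF, held under every alternative run. Of the 10 genes, DESeq2 called 1 in MyoD against MEF (1.1% of all genes it tested), where edgeR called 0. For MyoD F/R/C against MEF the replicate block gave 5 higher and 2 lower, and called 43.8% of all tested genes. Same-numbered MyoD F/R/C and MyoD libraries correlated at 0.0837, 0.119 and 0.164. These values are about as weak as those for MyoD F/R/C and MEF libraries, so pairing is unclear in both. Against MyoD the block called 6 of the 10 and 40.3% of all tested genes. It added Jag1 (adjusted p = 0.018) and turned Hes1 to 0.088. Other pathway genes called against MEF numbered 13 to 21 on leaving out 1 library. The 13 came without MyoD F/R/C replicate 2, where 28.8% of all tested genes were called, beside 37.6% in the main fit. Some uncalled values changed sign, and the cause was not tested. For MyoD minus MEF, counts from TPM gave Notch1 -0.021 and Dll1 0.43, total-count scaling gave Dll1 0.035, and dropping the third library of both groups gave Dll1 0.50. Leaving out 1 library gave Dll1 -1.38 to 0.32, Jag1 -0.23 to 0.53, Hey1 -0.59 to 2.69 and Heyl -1.10 to 5.30. For Notch3 it gave -0.10 to 0.48 against MEF and -0.26 to 0.32 against MyoD (total counts, -0.044), and for Hes1 -0.58 to 0.41 against MyoD. Depth limits the values of genes with few counts, among them Heyl, Dll1 and Hey1 in MyoD and MEF libraries.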
